A study of Homo sapiens with 12 samples.

Results

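DU145 is an established human line of prostate carcinoma cells that grows without androgen. Its resting transcriptome was described here from the 6 RNA-seq libraries of the series whose cells still carry RAC1, out of 12 libraries in all. They came from 3 lines with 2 biological replicates each: the parental line, and the clones sgNTC clone 1 and sgNTC clone 2, which were grown from single cells after transfection with Cas9 and a non-targeting guide. The labels give the genotype WT for all 3 lines and the same guide, sgNTC_1, for both clones. The 6 libraries left aside were from RAC1 knockout clones, which the study of VAV2, EGFR and RAC1 signalling set against these lines. All cells were kept in RPMI with 10% fetal bovine serum, with no further agent named. Each sgNTC line is 1 clone, so an effect of the guide and one of the choice of clone cannot be told apart. RAC1, the small GTPase that drives actin remodelling at the cell edge, stood at 172 ± 4.60 TPM (SD, n = 3 lines, as for every mean below). TPM is a read count divided by transcript length and scaled so that each library sums to 1000000. Levels of different genes are thus on the same scale, but they also went with transcript length and GC content, as given below. A comparison of different genes is therefore approximate.

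The glandular epithelium of the prostate holds luminal secretory cells, basal cells and rare neuroendocrine cells. Luminal cells respond to androgen, carry the factors FOXA1 and HOXB13, and secrete kallikreins such as KLK3 (prostate specific antigen). Basal cells depend on TP63 and carry the keratins KRT5 and KRT14, and neuroendocrine cells carry factors such as INSM1. Carcinoma lines often keep the keratins of simple epithelium while gaining genes of mesenchymal cells, such as the filament gene VIM. The description below takes lineage genes first, then receptors, adhesion genes and metabolic genes, and ends with the spread over the 3 lines.

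The libraries were alike in most respects, with 1 exception. Each held 6726 to 6983 genes at 10 TPM or more and 119 to 131 genes at 1000 TPM or more. Replicate 1 of sgNTC clone 2 had 13608 genes above 0, against 20470 to 25156 for the other 5 libraries. That library correlated with the others at r of 0.828 to 0.866 across 16006 genes on the log2(TPM + 1) scale, against 0.935 to 0.964 among the other 5. These correlations are across genes, which are not independent replicates. Of 6855 nuclear protein-coding genes with a mean of 5 TPM or more in the other 5 libraries, 64 were listed at 0 in it, while the same count was 0 or 1 for each other library. A value of 0 in that library is therefore given as listed at 0 and no more. As TPM keeps no record of read number, the depth of each library is unknown. In bulk RNA, fewer cells with a transcript and less transcript per cell cannot be told apart.

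Lineage genes came first, as a check of the label. All 5 general epithelial markers were present at 1 TPM or more, while none of the markers of fibroblasts, endothelium, leukocytes or smooth muscle did so. The keratin gene KRT18 stood at 236 ± 124 TPM and its partner KRT8 at 201 ± 35.8 TPM. Their values were 306 and 434 TPM in the parental line, 140.0 and 289 TPM in sgNTC clone 1 and 62.0 and 186 TPM in sgNTC clone 2 for KRT18, and 239 and 238 TPM in the parental line, 186 and 210.0 TPM in sgNTC clone 1 and 144 and 190.0 TPM in sgNTC clone 2 for KRT8. The parental libraries were the highest for both genes, and sgNTC clone 2 replicate 1 was the lowest. KRT18 and KRT8 overlap on opposite strands and KRT18 has many pseudogenes, whose rows summed to 18.3 TPM, so reads may be shared among them. KRT19 followed at 74.4 ± 25.3 TPM, KRT7, a further simple keratin gene outside this list, at 70.0 ± 12.7 TPM and the adhesion gene EPCAM at 24.2 ± 2.10 TPM. CDH1, the E-cadherin gene, was the least abundant of the 5 markers at 3.98 ± 1.51 TPM. Its values were 3.26 and 1.99 TPM in the parental line, 3.70 and 3.73 TPM in sgNTC clone 1 and 4.97 and 6.25 TPM in sgNTC clone 2, so sgNTC clone 2 lay above the other lines without an overlap. For this and other genes, such an order is a description unless a test is named. CDH1 did not pass the test among lines given below.

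Markers of other tissues were near 0. The 8 fibroblast markers summed to 0.0429 to 0.751 TPM per library, and COL1A2, DCN, LUM, PDGFRA and FAP were listed at 0 in all 6. For the 7 endothelial markers the sum was 0.111 to 0.779 TPM and VWF and TIE1 were listed at 0. The 9 leukocyte markers summed to 0 to 1.08 TPM, with PTPRC, CD3D, CD3E and MS4A1 listed at 0. The 5 smooth muscle markers summed to 0.0748 to 1.34 TPM, and ACTG2 was the highest of them at 0.584 ± 0.373 TPM. RNA of these cell types was thus at or near 0 by their defining markers in every library.

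**Figure D1:**
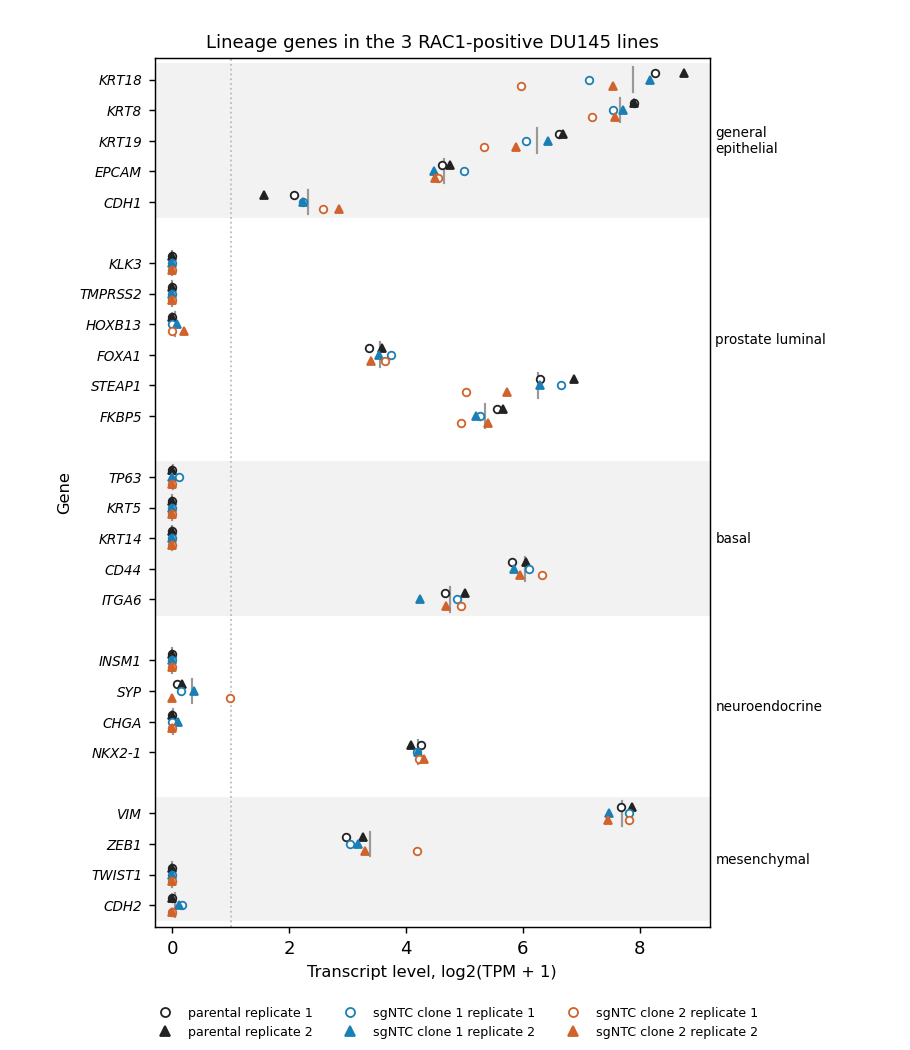
Transcript level of lineage genes (rows, grouped at the right) on the log2(TPM + 1) axis in the 6 libraries of the 3 RAC1-positive DU145 lines; open circles are replicate 1, filled triangles replicate 2, the grey bar is the log2 of the mean TPM plus 1, and the dotted line marks 1 TPM. KLK3, TMPRSS2, KRT5, KRT14, INSM1 and TWIST1 lie at 0 in all 6 libraries, while KRT18, KRT8, VIM, CD44, STEAP1 and NKX2-1 lie well to the right of the line.

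The plot of lineage genes shows some luminal genes well above 1 TPM and others at 0. Of 19 luminal and androgen response genes, 6 reached 1 TPM (31.6%, against 52.8% of all 19099 nuclear protein-coding genes) and 5 were listed at 0 in all 6 libraries. The androgen-regulated protease genes KLK3 and TMPRSS2, the cold channel gene TRPM8 and the seminal protein gene MSMB were among those at 0. KLK3 and TMPRSS2 were also listed at 0 in all 6 knockout libraries. HOXB13, a homeobox factor of the prostate, was above 0 in 2 libraries, at 0.0621 and 0.150 TPM. Against these, FOXA1, a pioneer factor that opens chromatin, was at 10.8 ± 0.682 TPM with a lowest, median and highest library of 9.38, 10.8 and 12.4 TPM. The metalloreductase gene STEAP1 was the most abundant of the list at 75.7 ± 29.6 TPM, ranging from 31.5 and 52.3 TPM in sgNTC clone 2 to 77.4 and 116 TPM in the parental line. FKBP5, a chaperone of steroid receptors that glucocorticoids induce, was at 39.9 ± 6.77 TPM.

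Regulators of prostate development showed the same mixture. Of 15 such genes, 6 were at 1 TPM or more, and GATA3, HOXD13 and FOXF1 were among those listed at 0. The ETS factor genes ETV5 and ETV4 stood at 16.7 ± 1.57 and 4.02 ± 1.64 TPM, and the bud factor gene SOX9 at 4.62 ± 2.16 TPM.

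Basal genes were mixed. TP63 was above 0 in 1 library, at 0.0808 TPM in sgNTC clone 1 replicate 1, and KRT5, KRT14, KRT17 and NGFR were listed at 0 in all 6. The hyaluronan receptor gene CD44 was nevertheless at 64.4 ± 5.19 TPM, ITGA6 (the laminin-binding integrin alpha 6) at 26.1 ± 2.56 TPM and the calcium-binding gene S100A2 at 24.3 ± 6.07 TPM. The cytolinker gene DST was at 11.7 ± 1.68 TPM and KRT15 at 1.42 ± 0.275 TPM, so 5 of 13 basal genes reached 1 TPM. All lines overlapped for CD44 and ITGA6.

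Neuroendocrine genes were mostly absent, with NKX2-1 apart. Of 18 genes 3 reached 1 TPM and 7 were listed at 0, among them INSM1, POU3F2 and SOX2. The homeobox gene NKX2-1, known as a lung and thyroid factor, was at 17.6 ± 0.640 TPM. Its values were 18.2 and 15.9 TPM in the parental line, 17.3 and 17.5 TPM in sgNTC clone 1 and 17.8 and 18.8 TPM in sgNTC clone 2. NKX2-1 thus varied little, and no line lay apart from both others. An antisense gene, NKX2-1-AS1, overlaps it and stood at 0.556 TPM. The enolase gene ENO2 was at 5.76 ± 1.85 TPM and the Notch ligand gene DLL3 at 3.74 ± 1.42 TPM, whereas the vesicle genes SYP and CHGA were at 0.261 ± 0.207 and 0.0116 ± 0.0200 TPM.

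Genes of epithelial and mesenchymal state were found side by side. VIM was at 207 ± 10.5 TPM, with values of 204 and 234 TPM in the parental line, 225 and 178 TPM in sgNTC clone 1 and 225 and 175 TPM in sgNTC clone 2 and overlapping lines. ZEB1, a repressor of epithelial genes, was at 9.45 ± 3.05 TPM with a lowest, median and highest library of 6.82, 8.35 and 17.14 TPM, the highest being sgNTC clone 2 replicate 1. TWIST2 was at 3.99 ± 2.27 TPM but listed at 0 in that library, and SNAI1 at 1.14 ± 0.648 TPM, or 0.739 TPM without that library. TWIST1, PRRX1, TCF4 and FOXC2 were listed at 0 in all 6 libraries, so 4 of 13 mesenchymal genes reached 1 TPM. On the epithelial side KLF5, a factor of proliferating epithelium, was at 11.4 ± 1.505 TPM, with 6.84 to 7.85 TPM in the replicates of batch 2 and 11.5 to 17.2 TPM in those of batch 1. The splicing factor gene ESRP2 was at 2.10 ± 0.228 TPM, and 5 of 12 epithelial regulators reached 1 TPM while OVOL1 and EHF were listed at 0.

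Among regulators of other lineages, 5 of 26 reached 1 TPM. MITF, best known from melanocytes, led them at 26.1 ± 1.69 TPM with a lowest, median and highest library of 20.2, 26.4 and 29.9 TPM, ahead of RUNX3 at 3.01 ± 0.710 TPM and GATA6 at 2.81 ± 0.382 TPM. HNF4A, PAX2 and SOX10 were among the 11 listed at 0.

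Growth-linked transcription factor genes were more widely present. Of 18 AP-1, MYC, YAP and TEAD genes 14 reached 1 TPM, led by MYC at 69.4 ± 6.88 TPM and the AP-1 gene FOSL1 at 42.9 ± 18.2 TPM. The 2 replicates of sgNTC clone 2 had the lowest FOSL1 values, 16.3 and 27.7 TPM, against 42.4 to 67.1 TPM in the other lines. WWTR1, which encodes the Hippo effector TAZ, was at 19.3 ± 1.95 TPM. Transcripts of tumour suppressor genes were also common, with 17 of 18 at 1 TPM or more. NF2 (merlin) stood at 43.5 ± 6.48 TPM, the cell cycle inhibitor gene CDKN2A at 27.4 ± 6.27 TPM and RB1, whose product restrains entry into S phase, at 11.3 ± 2.51 TPM with overlapping lines. A transcript level says nothing of mutations in these genes, which the tables do not record.

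Promoter sequence was set beside the levels for 11219 nuclear protein-coding genes with 1 RefSeq promoter entry, each from 250 bases before to 50 bases after the start site (GRCh38.p14). The GC box core GGGCGG, a contact of SP factors, was found on either strand in 30.2% of promoters of genes listed at 0, in 58.2% of those above 0 and below 1 TPM, and in 75.5%, 72.7% and 69.6% at 1 to 10, 10 to 100 and 100 TPM or more. The TATA box core TATAAA ran the other way, in 21.9%, 9.93%, 5.60%, 4.94% and 7.09% of the same classes. The median GC content of these promoters was 53.3%, 63%, 67%, 65% and 62.7% in the same order. The part of base composition in the shares of both motifs was not tested. CCAAT, the CCAAT box core, varied less, between 34.7% and 42.9%. Over all 22114 promoters of the table with 1 entry a gene, the shares were 43.0% for GGGCGG, 12.7% for TATAAA and 36.2% for CCAAT. A match is a run of letters and not a site shown to be bound.

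The 100 bases before the start are shown for 5 genes picked from both ends of the range of levels. Matches to these motifs on either strand are in capitals. VIM, MET and FTL are expressed in DU145, while KLK3 was listed at 0 and TP63 was at 0.0135 TPM. VIM lies at chr10:17228141-17228240, MET at chr7:116672096-116672195, FTL at chr19:48965209-48965308, KLK3 at chr19:50854815-50854914 and TP63 at chr3:189631289-189631388, all on the plus strand.
VIM: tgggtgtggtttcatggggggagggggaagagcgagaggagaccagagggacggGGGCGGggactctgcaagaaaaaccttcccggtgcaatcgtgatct
MET: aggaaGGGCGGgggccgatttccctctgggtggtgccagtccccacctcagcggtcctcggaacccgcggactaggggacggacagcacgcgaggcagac
FTL: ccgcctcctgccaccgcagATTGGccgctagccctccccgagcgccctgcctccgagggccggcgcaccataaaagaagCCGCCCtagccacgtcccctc
KLK3: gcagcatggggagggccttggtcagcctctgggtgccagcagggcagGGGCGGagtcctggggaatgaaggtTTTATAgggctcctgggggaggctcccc
TP63: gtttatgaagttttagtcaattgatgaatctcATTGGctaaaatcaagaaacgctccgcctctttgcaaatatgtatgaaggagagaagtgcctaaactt
VIM and MET each hold 1 GGGCGG, and FTL holds the reverse complements of GGGCGG and CCAAT. KLK3, the androgen-regulated gene, has a GGGCGG and, with its first base at position -28 from the start site, the reverse complement of TATAAA. TP63 has only a reversed CCAAT in this stretch. The same stretch was examined for KRT8 (201 TPM) and KRT5 (listed at 0), which are not printed. Neither holds a match to any of these motifs, so the expressed genes shown do not stand for all.

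The most abundant entries were mitochondrial genes and rows with clone-based names. The 10 most abundant genes held 13.0% of all TPM, the 100 most abundant 36.1% and the 1000 most abundant 71.5%. The highest of all was the mitochondrially encoded oxidase subunit gene MT-CO2 at 24251 ± 1166 TPM, and mitochondrial genes made up 10.3% to 13.2% of a library. Of the 20 most abundant entries 10 were mitochondrial and 6 had clone-based names without a match in the annotation, among them 4 that share 1 clone name and summed to 49006 TPM. Another 2 were RPL41 pseudogenes, RPL41P1 and RPL41P5, whose models span only 81 and 78 bases, and 1 was the miRNA gene MIR1244-2 of 85 bases. The RPL41 gene stood at 3189 ± 316 TPM, and the rows of its pseudogenes summed to 15516 TPM, so the split of reads between them is uncertain.

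FTL, the ferritin light chain of iron storage, was the only nuclear protein-coding gene among those 20, at 10930.0 ± 4371 TPM. Its values were 15903 and 12592 TPM in the parental line, 13474 and 11657 TPM in sgNTC clone 1 and 6150.5 and 5805 TPM in sgNTC clone 2. Both libraries of sgNTC clone 2 lay below all 4 others, but the difference among lines did not pass the test given below (limma adjusted p = 0.193). Next came TXN (thioredoxin) at 4864 ± 223 TPM and the actin-binding gene TMSB10 at 4672 ± 497 TPM. Cytoskeletal genes were prominent, with ACTB at 3972 ± 1789 TPM and ACTG1 at 3197 ± 193 TPM. ACTB had a lowest, median and highest library of 1543, 4063 and 6892 TPM, a wider range than that of ACTG1, with a lowest, median and highest library of 2905, 3100.3 and 3688 TPM. The chaperone gene HSP90AB1 was at 3305 ± 105 TPM and the cell cycle gene CKS2 at 3299 ± 328 TPM. Of the 67 nuclear protein-coding genes at 1000 TPM or more, 16 encode cytosolic ribosomal proteins and 4 heat shock proteins. The 19099 nuclear protein-coding genes had a median of 1.34 TPM, 22.03% of them were listed at 0 in all 6 libraries and 52.8% reached 1 TPM.

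Receptors were described by family. Of 48 nuclear receptor genes 20 were at 1 TPM or more and 8 were listed at 0, among them PGR (progesterone receptor), NR1H4 and RORB. The orphan receptor gene NR2C1 led at 23.4 ± 3.93 TPM, followed by NR3C1, the glucocorticoid receptor gene, at 22.3 ± 3.39 TPM. NR3C1 values were 21.4 and 21.5 TPM in the parental line, 20.4 and 18.3 TPM in sgNTC clone 1 and 30.7 and 21.3 TPM in sgNTC clone 2, so both libraries of sgNTC clone 1 lay a little below the rest. NR2F2 was at 14.1 ± 1.48 TPM and PPARG, the fat cell regulator, at 11.8 ± 0.255 TPM. The PPARG libraries ranged from 8.51 to 14.7 TPM. NR1H2, an oxysterol receptor gene, was at 10.4 ± 2.02 TPM. Of the other steroid hormone receptors, PGR was listed at 0 as given, and ESR1, ESR2 and NR3C2 stood at 0.00869, 0.0115 and 0.0734 TPM.

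Receptor tyrosine kinases were led by 1 gene. AXL, the receptor of GAS6, stood at 529.8 ± 107 TPM, with values of 647 and 618 TPM in the parental line, 480.4 and 359 TPM in sgNTC clone 1 and 600.3 and 473 TPM in sgNTC clone 2. The parental libraries were the highest and the clones overlapped. AXL alone made up most of the 649 TPM summed over the 58 genes of the family, of which 17 reached 1 TPM and 17 were listed at 0. MET, the hepatocyte growth factor receptor, was at 26.8 ± 5.73 TPM and the ephrin receptor EPHA2 at 18.8 ± 1.44 TPM. EGFR, the receptor named in the study's title, was at 15.1 ± 1.51 TPM, with values of 15.5 and 17.6 TPM in the parental line, 14.9 and 12.2 TPM in sgNTC clone 1 and 18.0 and 12.7 TPM in sgNTC clone 2 and no line apart. ROR1, a WNT5A receptor, was at 10.8 ± 1.64 TPM. Of the other members of the EGFR family, ERBB3 was at 1.78 ± 0.192 TPM and ERBB2 at 1.35 ± 0.456 TPM, and ERBB4 was listed at 0. ERBB2 overlaps MIEN1 (51.5 TPM) on the opposite strand. INSRR and PDGFRA were also listed at 0.

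Receptors of cytokines and of death ligands came next. Of 40 cytokine receptor genes 20 reached 1 TPM (50%, against the 52.8% of all nuclear protein-coding genes). The interferon receptor genes IFNAR1 and IFNGR1 stood at 83.8 ± 10.5 and 80.8 ± 16.5 TPM, and OSMR (oncostatin M receptor) and its partner IL6ST at 29.8 ± 3.87 and 17.03 ± 4.35 TPM. IFNAR1, IFNGR1 and OSMR were each highest in sgNTC clone 2 replicate 1, and no line lay apart from both others. IL2RA, IL2RG, IL20RA and IL1R2 were listed at 0. In the TNF receptor family 11 of 28 reached 1 TPM (39.3%), with TNFRSF12A (the TWEAK receptor) at 73.5 ± 11.2 TPM, the TRAIL decoy receptor TNFRSF10D at 34.1 ± 5.66 TPM and FAS at 19.3 ± 0.478 TPM. The FAS libraries ranged from 14.7 to 22.8 TPM.

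G protein coupled receptors were sparser. Of 60 genes 19 reached 1 TPM and 15 were listed at 0, CXCR2, CXCR3, CXCR5 and ACKR3 among them. The retinoid-induced orphan receptor GPRC5A led at 111 ± 18.2 TPM. F2RL1, the protease-activated receptor 2, followed at 20.3 ± 13.2 TPM and differed among the lines, as given below. LPAR1, a receptor of lysophosphatidic acid, was at 16.0 ± 4.73 TPM and the adenosine receptor ADORA2B at 14.0 ± 0.258 TPM. Of 16 Frizzled, LRP and Notch genes 7 reached 1 TPM, and the Frizzled receptor FZD6 exceeded the rest at 122 ± 27.9 TPM. FZD6 values were 95.1 and 95.5 TPM in the parental line, 148 and 94.6 TPM in sgNTC clone 1 and 200.02 and 102 TPM in sgNTC clone 2, so that sgNTC clone 2 replicate 1 was the highest and the lines overlapped. The TGF-beta receptors TGFBR1 and TGFBR2 stood at 35.0 ± 8.40 and 14.7 ± 0.260 TPM. The TGFBR2 libraries ranged from 11.2 to 18.0 TPM.

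**Figure D2:**
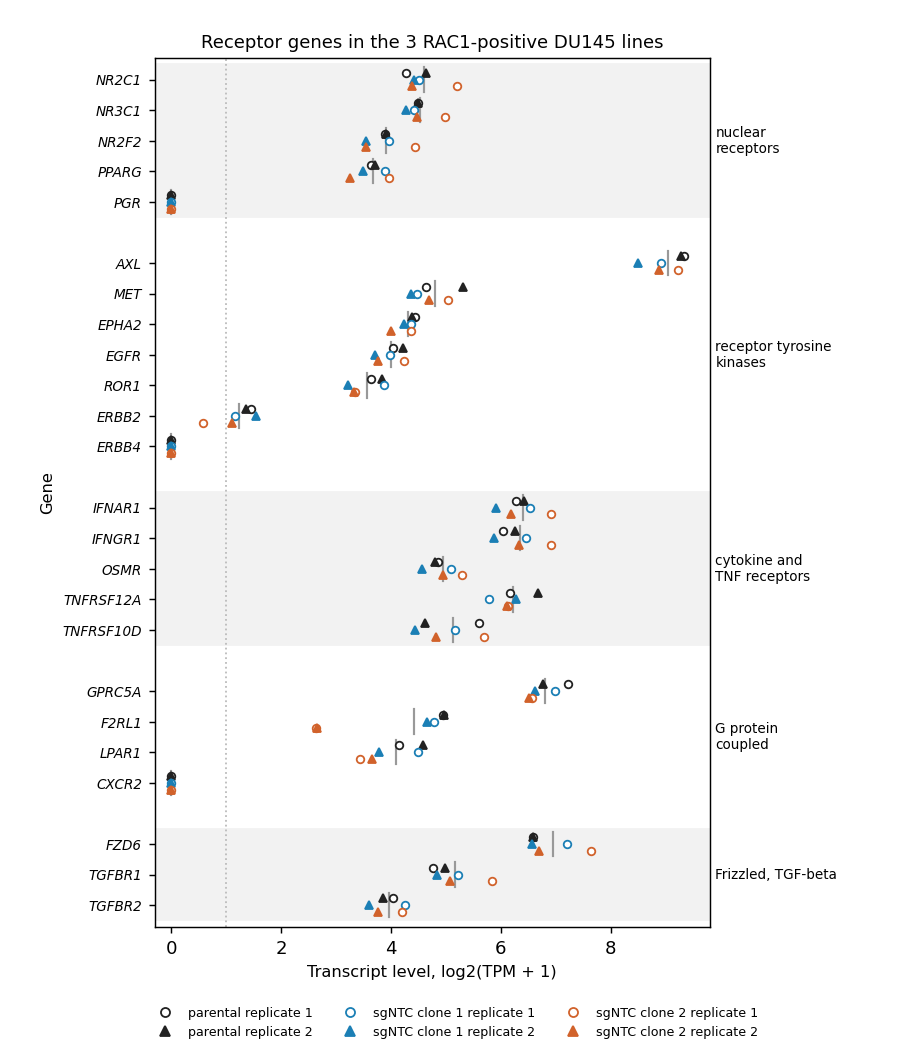
Transcript level of receptor genes (rows, by family at the right) on the log2(TPM + 1) axis in the 6 libraries; open circles are replicate 1, filled triangles replicate 2, the grey bar is the log2 of the mean TPM plus 1 and the dotted line marks 1 TPM. AXL stands far to the right of the other kinases at 359 to 647 TPM, PGR, ERBB4 and CXCR2 lie at 0, and the 2 sgNTC clone 2 libraries lie apart for F2RL1 at 5.19 and 5.29 TPM.

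The plot of receptor genes shows the 6 libraries close together for most receptors. For F2RL1 both libraries of sgNTC clone 2 lie to the left of the other 4.

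Adhesion genes to matrix and to neighbouring cells were next. Of 26 integrin subunits 9 reached 1 TPM. ITGB1, the beta subunit shared by most matrix receptors, stood at 757 ± 119 TPM with values of 700.5 and 916 TPM in the parental line, 689 and 555 TPM in sgNTC clone 1 and 951 and 733 TPM in sgNTC clone 2. Both libraries of sgNTC clone 1 were below the other 4. Its alpha partners were far lower. ITGA6 was at 26.1 ± 2.56 TPM, ITGAV at 8.29 ± 2.49 TPM and ITGA3 at 6.42 ± 1.40 TPM. ITGAE, known from lymphocytes of epithelia, was at 49.01 ± 3.45 TPM, but it shares exon bases with HASPIN on the opposite strand. ITGB4, the other beta partner of ITGA6, stood at 0.399 TPM, and ITGB6, ITGB7, ITGA8 and ITGAD were listed at 0.

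Cell junction genes were uneven. The catenin genes CTNNA1, CTNNB1 and CTNND1 stood at 79.2 ± 10.1, 47.99 ± 5.62 and 26.8 ± 2.15 TPM, above every classical cadherin. P-cadherin (CDH3) was the most abundant cadherin at 16.9 ± 5.75 TPM, with values of 16.5 and 14.2 TPM in the parental line, 8.98 and 15.2 TPM in sgNTC clone 1 and 24.6 and 21.9 TPM in sgNTC clone 2, and E-cadherin (CDH1) was next at the level given above. Both were highest in sgNTC clone 2. N-cadherin (CDH2) was above 0 in 2 libraries, at 0.122 and 0.0870 TPM. Only 5 of 28 cadherin and catenin genes reached 1 TPM. Among desmosome genes, 7 of 14 did so. The desmosomal cadherin DSG2 was at 123 ± 15.5 TPM and PERP at 14.9 ± 5.50 TPM, while DSG1, DSG3 and DSG4 of stratified epithelium were listed at 0. Plakoglobin (JUP) and desmoplakin (DSP), which link desmosomal cadherins to keratins, stood at 0.745 ± 0.280 and 1.57 ± 0.399 TPM.

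Tight junctions were represented by 13 of 31 genes. CLDN12 led at 51.5 ± 1.31 TPM, though its exons overlap those of other genes, and the scaffold gene TJP1 (ZO-1) followed at 37.8 ± 4.27 TPM. The CLDN12 libraries ranged from 40.1 to 65.5 TPM. CLDN1 was at 33.2 ± 18.4 TPM, with values of 34.1 and 73.9 TPM in the parental line, 24.7 and 27.9 TPM in sgNTC clone 1 and 23.7 and 14.7 TPM in sgNTC clone 2, the highest being parental replicate 2. CLDN11 was at 23.0 ± 13.5 TPM, with 7.91 and 7.15 TPM in sgNTC clone 1 against 28.6 to 34.3 TPM in the other lines. The difference in CLDN11 did not pass the test among lines (limma adjusted p = 0.193).

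Other surface genes and laminin chains were present, while interstitial matrix genes were not. The tetraspanin CD9 was at 201 ± 14.5 TPM, basigin (BSG) at 150.2 ± 9.42 TPM and the proteoglycan SDC4 at 128 ± 13.6 TPM, while VCAM1 was listed at 0. Of 41 matrix genes 16 reached 1 TPM. The chains LAMB3 and LAMA3, which are part of the laminin of hemidesmosomes, stood at 44.8 ± 14.2 and 4.99 ± 0.586 TPM, and THBS1 (thrombospondin 1) at 39.0 ± 11.8 TPM. FN1 (fibronectin) was at 0.490 ± 0.0958 TPM, and the interstitial genes COL1A2, SPARC and DCN were listed at 0.

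**Figure D3:**
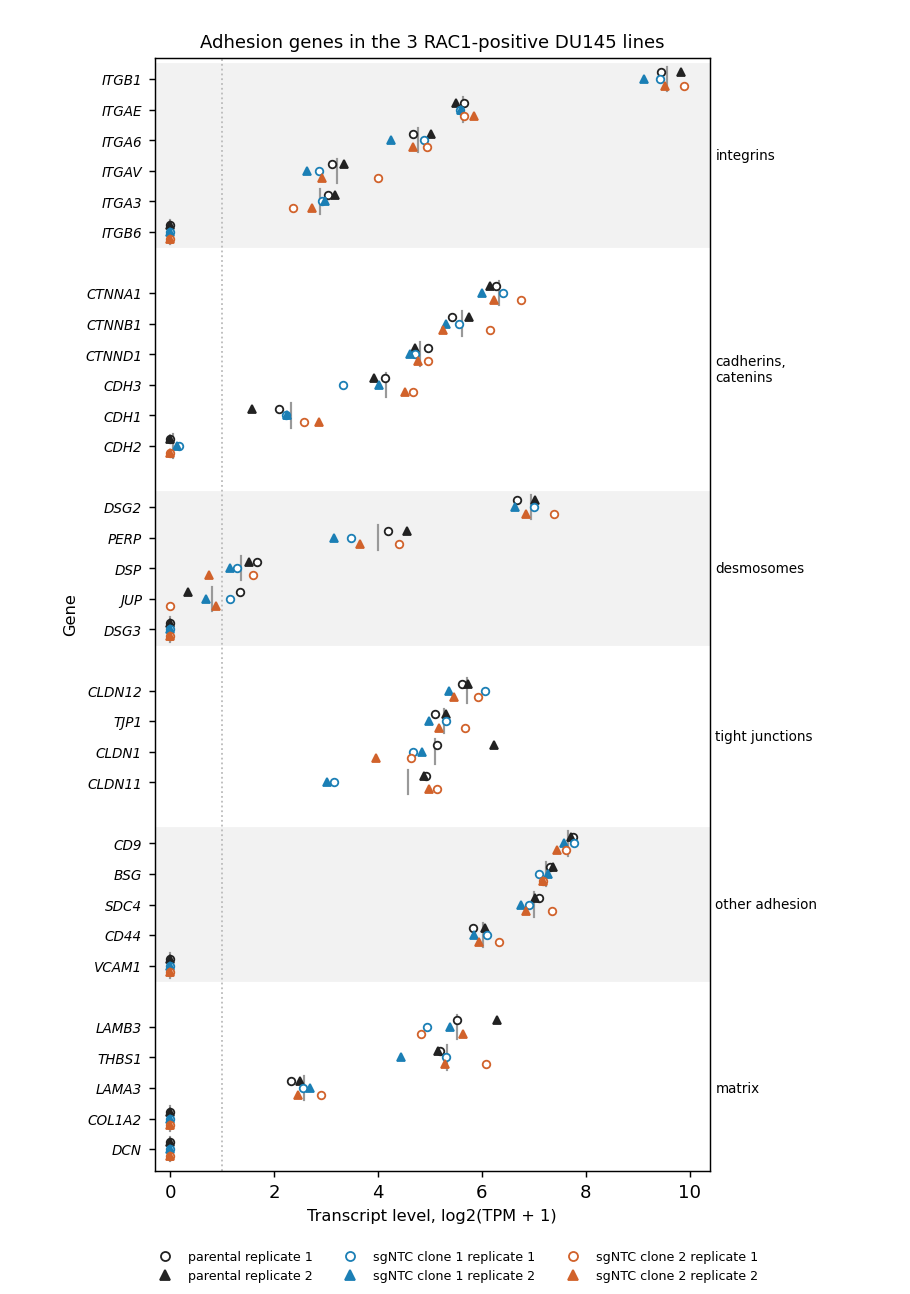
Transcript level of adhesion and matrix genes (rows, by class at the right) on the log2(TPM + 1) axis in the 6 libraries; open circles are replicate 1, filled triangles replicate 2, the grey bar is the log2 of the mean TPM plus 1 and the dotted line marks 1 TPM. ITGB1 is the highest at 555 to 951 TPM, CDH2 lies at or near 0, and the 2 sgNTC clone 1 libraries are apart for CLDN11.

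The plot of adhesion genes sets the 1 dominant integrin chain against its partners and shows catenins to the right of both classical cadherins. CDH1 lies to the left of CDH3 in every library.

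Metabolic lists spanned a wide range of levels. The median level was 71.6 TPM for nucleotide synthesis, 69.5 TPM for redox genes and 62.1 TPM for the citrate cycle, but 0.0187 TPM for steroid metabolism, against 1.34 TPM for all nuclear protein-coding genes. Of 32 genes of glycolysis and lactate handling 19 reached 1 TPM, 4 of them above 1000 TPM. GAPDH was at 2195 ± 73.6 TPM, ENO1 at 1538 ± 103 TPM, TPI1 at 1314 ± 47.2 TPM and LDHB at 1125 ± 66.5 TPM. Where an enzyme step has several genes, 1 usually made up nearly all of the transcript. PKM held 100% of pyruvate kinase, as PKLR was listed at 0, SLC2A1 held 97.8% of the 4 glucose transporter genes counted, HK1 80.8% of hexokinase and PFKP 79.3% of phosphofructokinase. Lactate dehydrogenase was divided, with LDHB at 59.1% (57.9% to 60.6% over the lines) and LDHA at 40.9%. LDHB values were 1191 and 1155 TPM in the parental line, 1127 and 971 TPM in sgNTC clone 1 and 1197 and 1112 TPM in sgNTC clone 2, and LDHA values 862 and 780.3 TPM in the parental line, 719.9 and 642 TPM in sgNTC clone 1 and 884 and 792 TPM in sgNTC clone 2, so LDHB was above LDHA in every library. LDHB shares exon bases with another annotated gene. These steps and their genes were grouped after values had been seen. ALDOA, the usual aldolase gene, was at only 17.3 ± 2.77 TPM, and its rank is uncertain, since a second annotated gene covers some of its exons and its pseudogene rows summed to 8.18 TPM.

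Citrate cycle genes were nearly complete, with 30 of 32 at 1 TPM or more and none listed at 0. The succinate dehydrogenase subunit SDHD led at 625 ± 69.8 TPM, but overlaps TIMM8B (237 TPM) on the opposite strand. The malate dehydrogenases MDH2 and MDH1 were at 421 ± 14.4 and 391 ± 34.7 TPM and citrate synthase (CS) at 99.5 ± 3.92 TPM. MDH2 varied little, with a lowest, median and highest library of 386, 426 and 434 TPM. In the pentose phosphate pathway, 8 of 10 genes reached 1 TPM, with TALDO1 at 265 ± 21.8 TPM and PGD at 158 ± 3.09 TPM.

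Lipid genes combined a high level of the elongase gene ELOVL5 with low FASN. Of 31 fatty acid genes 25 reached 1 TPM. The carrier gene FABP5 was at 457 ± 63.1 TPM, the oxidation gene HADHA at 339 ± 14.1 TPM, ELOVL5 at 276 ± 42.1 TPM and the desaturase gene SCD at 119 ± 29.7 TPM. ELOVL5 held 62.4% of the transcript of 7 elongase genes. The others ranged from 2.34 TPM (ELOVL4) to 72.0 TPM (ELOVL2). FASN, the synthase that builds palmitate, was at 1.33 ± 0.161 TPM, with values of 1.56 and 1.03 TPM in the parental line, 1.74 and 1.26 TPM in sgNTC clone 1 and 1.64 and 0.724 TPM in sgNTC clone 2. Its transcript is 8565 bases long with 65.3% GC, and the part of length and GC in its low value was not tested. In cholesterol synthesis and uptake 19 of 22 genes reached 1 TPM, with IDI1 at 192 ± 49.7 TPM and FDFT1 at 176 ± 24.2 TPM.

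Serine and one-carbon genes stood out among amino acid genes. PSAT1, the aminotransferase of serine synthesis, was at 1717 ± 177 TPM, with values of 1617 and 1754 TPM in the parental line, 1698 and 1416 TPM in sgNTC clone 1 and 2054 and 1761 TPM in sgNTC clone 2. Both libraries of sgNTC clone 2 were above the other 4, by little over the parental line. The steps before and after it were far lower, PHGDH at 25.8 ± 4.60 TPM and PSPH at 76.8 ± 10.6 TPM. The mitochondrial folate enzyme MTHFD2 was at 315 ± 35.7 TPM. Of 34 genes 25 reached 1 TPM, and GPT, CPS1, IDO1 and TDO2 were listed at 0. All 27 genes of nucleotide synthesis reached 1 TPM, the salvage genes APRT and HPRT1 at 505 ± 38.9 and 316 ± 42.8 TPM, TK1 at 364 ± 20.01 TPM and RRM1 at 263 ± 13.3 TPM.

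Redox genes held 24529 TPM in sum, and 31 of 36 reached 1 TPM. Beside FTL and TXN, the peroxiredoxins PRDX1 and PRDX3 stood at 1516 ± 50.7 and 1291 ± 156 TPM, the quinone reductase NQO1 at 1459 ± 227 TPM and TXNRD1 at 889.5 ± 73.7 TPM. The ferritin heavy chain gene FTH1 was at 70.3 ± 11.3 TPM while its pseudogene rows summed to 66.1 TPM, so the ratio of FTL to FTH1 cannot be read from these rows. Steroid genes were few, with 7 of 27 at 1 TPM or more. HSD17B10, a mitochondrial enzyme with several substrates, was at 143 ± 9.10 TPM. The 5-alpha reductase SRD5A1 was at 6.59 ± 0.449 TPM, SRD5A2 was listed at 0, and so were CYP17A1, CYP11B1, HSD3B1 and HSD17B3 of androgen and steroid synthesis.

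**Figure D4:**
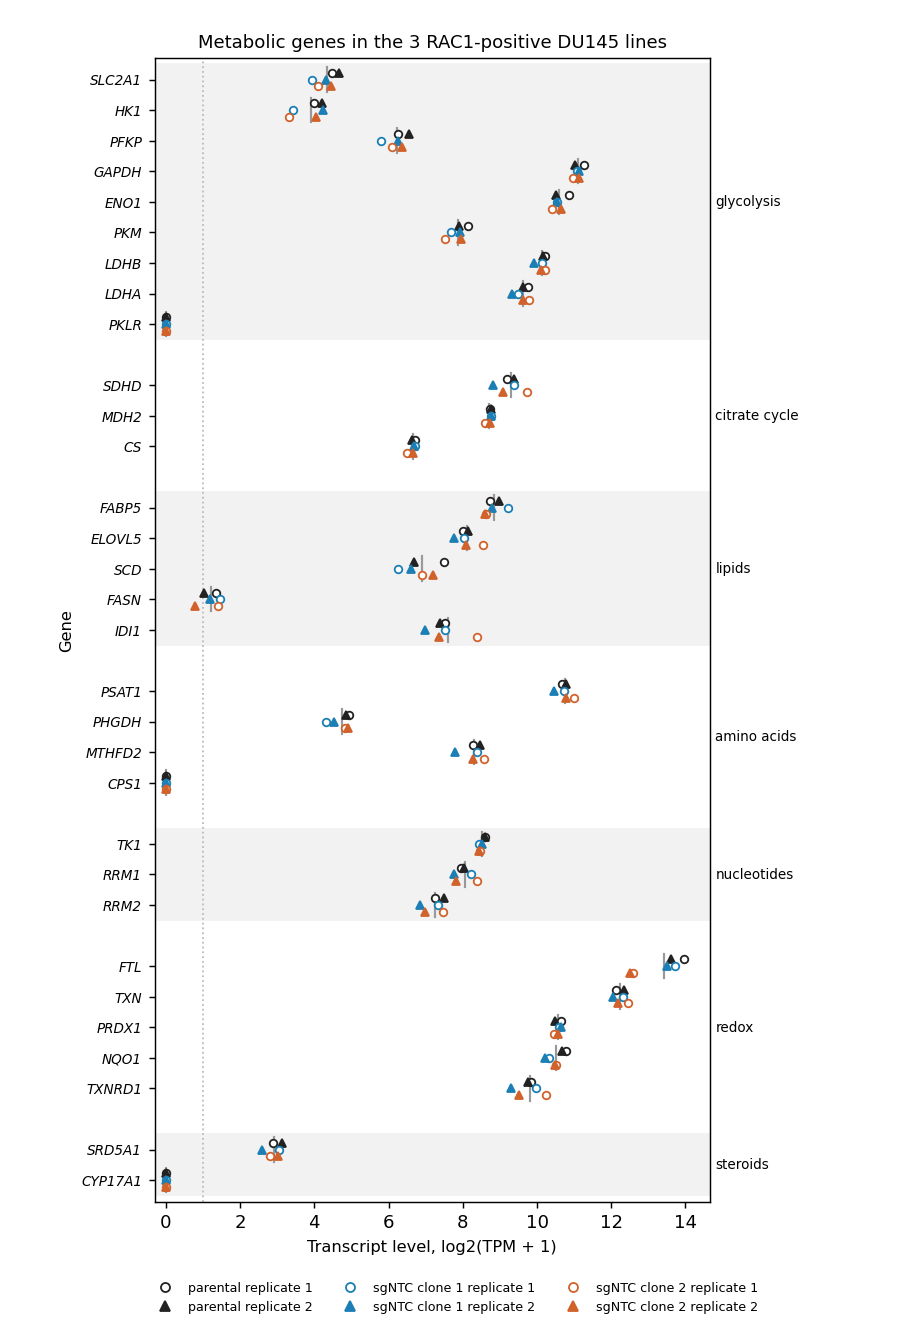
Transcript level of metabolic genes (rows, by pathway at the right) on the log2(TPM + 1) axis in the 6 libraries; open circles are replicate 1, filled triangles replicate 2, the grey bar is the log2 of the mean TPM plus 1 and the dotted line marks 1 TPM. FTL has the highest level, GAPDH, ENO1, LDHB, PSAT1 and the redox genes cluster near or above 1000 TPM, FASN lies near 1 TPM, and PKLR, CPS1 and CYP17A1 lie at 0.

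The plot of metabolic genes shows close libraries for GAPDH, MDH2, CS and TK1 and a gap between sgNTC clone 2 and the other lines for FTL.

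Over all 37 lists 431 of 871 genes reached 1 TPM (49.5%) and 177 were listed at 0 in all 6 libraries, near the 52.8% and 22.03% of all nuclear protein-coding genes. The lists differed widely around this share, from 100% for nucleotide synthesis and 93.8% for the citrate cycle to 16.7% for neuroendocrine genes and 0% for markers of other cell types. Level also went with transcript length and GC content across genes, as a description. Over 10078 nuclear protein-coding genes at 1 TPM or more, Spearman's rho with the level was -0.28 for length and -0.26 for GC content. The median level fell from 17.6 TPM in the fifth of lowest GC content to 4.78 TPM in the fifth of highest. The part of length and GC content in the levels above was not tested.

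The spread over the 3 lines was of about the size of the spread between replicates. Among nuclear protein-coding genes at 10 to 100 TPM, the median CV of the line means was 11.9%, and the median CV between replicates was 18.8%. The first is of means of 2 libraries and the second of single libraries, so they are not like for like. On the log2(TPM + 1) scale the median SD of the line means was 0.16, while the replicate SD divided by the square root of 2 was 0.18. The SD over lines was above that replicate term for 43.1% of these genes. The replicates of a line carry different batch numbers in the labels, so the replicate SD holds any batch shift, which cancels in a comparison of line means. With the shift shared by the 3 lines removed, the median replicate term at 10 to 100 TPM was 0.16 and the SD over lines was above it for 48.9% of genes. Removing the shift also leaves fewer independent differences behind the replicate term. The part of this in the rise of the share was not tested. At 1 to 10 TPM the share was 48.7%, or 53.5% with the shift removed. At 1000 TPM or more the medians of the SD over lines and of the replicate term were 0.09 and 0.11. Without sgNTC clone 2 replicate 1 the median CV of the line means at 10 to 100 TPM was 9.47%, and no replicate CV is given without that library. The ribosomal protein gene RPS4X (295 ± 5.28 TPM), the membrane complex gene EMC4 (149 ± 2.16 TPM) and the signal recognition gene SRP14 (562 ± 10.2 TPM) were among the 10 genes at 100 TPM or more with the smallest CV over the 6 libraries. At the other end, the survival gene BCL2A1 had a CV of 114% at 11.2 ± 12.8 TPM, with 18.5 and 33.2 TPM in the parental line and 1.66 to 9.39 TPM in the clones. The stress ligand gene ULBP2, F2RL1 and the unfolded protein response gene HERPUD1 followed with CVs of 74.6%, 65.3% and 64.4% among genes at 10 TPM or more. These genes were picked by their spread, which is given as a description. The test over all genes follows.

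Which genes differed among the lines was tested with limma on log2(TPM + 1) over 16006 genes. Of these, 2 genes passed an F test over the 3 lines at an adjusted p of 0.05 (0.0125%), KYNU and F2RL1. No other gene given above with a line above or below the rest passed it. CDH1, FOSL1, ITGB1, NR3C1, PSAT1 and AXL were among those that did not. At an unadjusted p under 0.05 there were 954 genes, where 800 are expected by chance. With the replicate number as a block, which the labels tie to the batch, 0 genes passed and both genes had an adjusted p of 0.0575 in limma. The calls rest on the spread lent by the 6 knockout libraries: with the 6 RAC1-positive libraries alone, 0 genes passed, and the limma adjusted p was 0.972 for KYNU and 0.771 for F2RL1. The p-values measure the spread between 2 biological replicates of a line, and not that between independent clones. In simulated data the F test recovered only 14.8% of genes changed by 2 times in sgNTC clone 2. A gene that did not pass may therefore still differ among the lines. Among the 431 genes of the lists that were tested, KYNU and F2RL1 were the 2 called, and 10.7% had an unadjusted p under 0.05 against 5.96% of all genes tested. The lists were made with earlier results of these data known, and all genes tested include pseudogenes and rows without a match in the annotation. The 2 shares are thus a description and not a test of the lists.

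KYNU, the kynureninase of tryptophan breakdown, was higher in the parental line. Its values were 11.8 and 10.2 TPM in the parental line, 2.50 and 1.74 TPM in sgNTC clone 1 and 0.872 and 0.919 TPM in sgNTC clone 2, with the parental line above the clones without overlap. The log2 difference of the parental line from the mean of both clones was 2.31 (SE 0.17, limma adjusted p = 0.00688), and KYNU was the only gene that passed for that line (0.00625% of 16006, with 642 genes at an unadjusted p under 0.05), and 0 passed with the 6 RAC1-positive libraries alone. No gene passed for sgNTC clone 1 (0 of 16006, or 0%, by limma), where 690 had an unadjusted p under 0.05. The counts of 642 and 690 both lie below the 800 expected by chance.

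For sgNTC clone 2, 4 genes passed (0.025%), all lower than in the other lines, and 1485 had an unadjusted p under 0.05, where 800 are expected by chance. F2RL1 stood at 29.99 and 30.3 TPM in the parental line, 26.7 and 24.3 TPM in sgNTC clone 1 and 5.19 and 5.29 TPM in sgNTC clone 2, a log2 difference of -2.20 (SE 0.19, limma adjusted p = 0.0215). SCEL, which encodes sciellin of the cornified envelope, was at 9.79 and 11.5 TPM in the parental line, 14.3 and 10.3 TPM in sgNTC clone 1 and 1.22 and 2.11 TPM in sgNTC clone 2 (log2 difference -2.24, SE 0.22, limma adjusted p = 0.0253). KYNU also passed there (-1.68, limma adjusted p = 0.0253). The fourth, CTD-2396E7.11, was listed at 0 in both libraries of sgNTC clone 2 and at 2.82 to 3.82 TPM in the other 4. Under the replicate block 1 gene passed for this clone, and with the 6 RAC1-positive libraries alone 0 did. Leaving out 1 library moved these counts widely: the F test called 78 genes without sgNTC clone 2 replicate 1, 1666 without its replicate 2 and 0 without any 1 of the other 4.

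**Figure D5:**
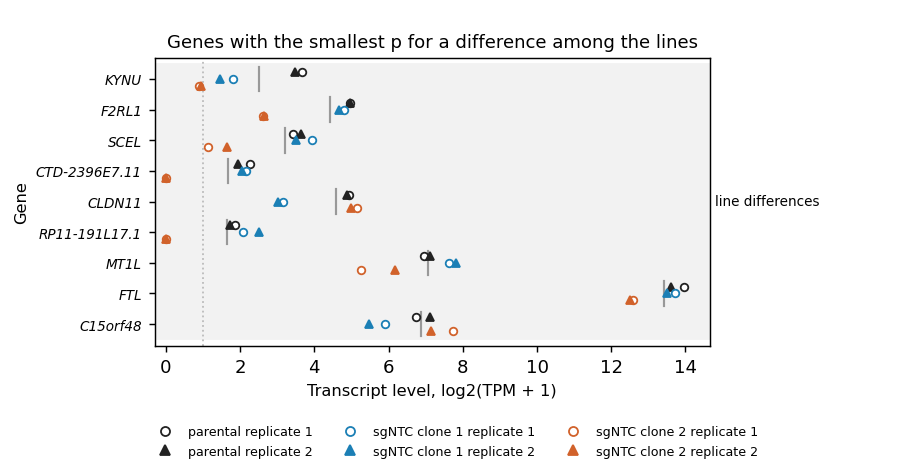
Transcript level of the 9 genes shown for the F test over lines (rows) on the log2(TPM + 1) axis in the 6 libraries; open circles are replicate 1, filled triangles replicate 2, the grey bar is the log2 of the mean TPM plus 1 and the dotted line marks 1 TPM. KYNU is highest in the parental line, F2RL1 and SCEL are lowest in sgNTC clone 2 and CLDN11 is lowest in sgNTC clone 1; only KYNU and F2RL1 passed the F test.

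The plot of genes that varied among lines shows that the 2 replicates of a line lay close together for KYNU, F2RL1 and CLDN11. The genes plotted were picked by the smallest p in the F test, which favours close replicates. That closeness is therefore no separate result. FTL and C15orf48, which are far more abundant, split the lines as well, but neither passed (limma adjusted p = 0.193 for both).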

How the data were processed

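RNA-seq was done on 12 libraries of DU145, of which the 6 of the parental line and the sgNTC clones are described. Per the labels' protocols, RNA was taken with TRIzol, a column clean-up followed, and 160 ng went into SMARTScribe reverse transcription, Advantage 2 amplification and tagmentation. Per the submitters' processing notes, bcl2fastq, STAR 2.6.1d and DESeq2 were used with GRCh38. The sources used here do not give how reads were counted, with which annotation, or whether by strand. Overlapping or near-identical genes may thus share reads. The authors' deposited file gives TPM values for 56832 genes in each library. The unit was read from the values, since each column sums to 1000000. The same table holds the authors' comparison of genotypes (a mean signal, a log2 fold change, a Wald score and p-values, per the file headers), which was not used.

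The mean of a gene is that of the 3 line means, and the SD is over those 3 means. Genes were matched to GENCODE 29 and RefSeq by symbol, 53.8% of all and 73.4% of those at 1 TPM or more. Promoters came from RefSeq (GRCh38.p14). Differences among lines were tested with limma 3.58.1 in R 4.3.3 on log2(TPM + 1), with 1 mean per line over all 12 libraries, a variance trend, a minimum mean of 1 TPM and Benjamini-Hochberg adjustment at 0.05. The knockout lines lent only their replicate spread to this fit. The steps were tested on simulated data with changes put into sgNTC clone 2. The F test recovered 0%, 14.8% and 75.2% of genes changed by 1.5, 2 and 4 times. The replicate number is the batch per the labels, which pairs the samples, although the deviations of same-numbered libraries correlated at only -0.13, -0.12 and 0.31 over the 3 pairs of lines.

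The 37 gene lists and the choice of these libraries were made with earlier results of these data known. Named genes are the 20 most abundant, up to 5 of the most abundant and up to 4 of those listed at 0 in each list, fixed lineage and cancer genes, the leading gene of an enzyme step, and for each line the 4 highest and 4 lowest genes past the threshold with both libraries apart and at least 10 TPM on the higher side. Some genes that this rule names are not reported here. Other genes named were chosen after their values were seen. Alternatives changed the pseudocount (0.1 and 5), the level filter, the scaling, the batch, the replicate block and the libraries used. Removal of the batch shift from the replicate SD was added after seeing the data.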

Additional observations from a re-analysis of the deposited data

Results flagged for a closer look

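The library sgNTC clone 2 replicate 1 had 12843 genes at 1 TPM or more, the lowest of the 6 libraries, and its gap to the next library was 0.782 of the whole range. In parental replicate 1 the 4 entries that share 1 clone name and have no match in the annotation took 4.43% of all TPM, also the lowest of 6 and with a gap of 0.644 of the range. Of the 10 library measures examined these were the 2 that stood apart, where chance alone sets about 1 in 20 apart. The cause of either value was not tested.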

How the results depend on the processing

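Levels of most named genes moved by less than 1.5 times, while the counts of genes called between lines moved widely. Of 320 named genes, the levels of 55 moved by more than 1 SD over the 6 libraries when mitochondrially encoded genes were left out and the rest rescaled. The 10, 100 and 1000 most abundant genes then held 10.98%, 30.1% and 68.1% of TPM, fewer than with mitochondrial genes by construction. No level moved by more than 1 SD under median-of-ratios scaling. With 1 library left out, 1 batch alone or the median, a level cannot move by more than that SD, so the rule cannot judge those settings. Among the 194 named genes at 1 TPM or more, those that moved by over 1.5 times were SNAI1 (without sgNTC clone 2 replicate 1, and as the median of the 6 libraries), KYNU (as that median), KLF5 and DSC3 (batch 2 alone), and the mitochondrial genes where they were left out.

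The F test over lines called 12 genes at a pseudocount of 0.1, 0 at a pseudocount of 5, 14 without a level filter, 1 with a filter of 5 TPM, 0 with the 6 libraries alone, 0 with the replicate block, and 0 to 1666 with 1 library left out. For the parental line the counts were 2, 1, 3, 0 and 0 in the same order, 1 with the block, and 1 to 304 with 1 library left out (31 and 16 without parental replicates 1 and 2). For sgNTC clone 1 they were 0, 0, 19, 0 and 0, 0 with the block, and 0 to 678 (44 without its replicate 2 and 9 without sgNTC clone 2 replicate 1). For sgNTC clone 2 they were 13, 1, 1, 2 and 0, 1 with the block, and 0 to 3124 (71 without its replicate 1). All 4 largest counts came without sgNTC clone 2 replicate 2, when that line rests on its other library alone, assumed to vary like the rest. KYNU, at a mean of 4.68 TPM, falls below the filter of 5 TPM and was not tested under it. Median-of-ratios scaling kept every count. The pairing by replicate number raised the adjusted p of KYNU and F2RL1 to 0.0575 in limma. The depth of TPM libraries is unknown, so a gene listed at 0 may be expressed below what was sequenced.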
